A study of Mus musculus with 6 samples.

Results

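The interleukin-1 (IL-1) and interleukin-36 (IL-36) family was followed in mouse ear skin through 10 genes, picked by gene name as the agonists, antagonists and receptors of the family. They were the agonists Il1a and Il1b, their antagonist Il1rn, the receptors Il1r1 and Il1r2, the IL-36 agonists Il1f6, Il1f8 and Il1f9, the IL-36 antagonist Il1f5, and the IL-36 receptor Il1rl2. The array uses older symbols: Il1f6, Il1f8 and Il1f9 encode IL-36α, IL-36β and IL-36γ, and Il1f5 encodes the IL-36 receptor antagonist. The 10 genes were read by 11 of 39389 probes and were 10 of 23676 genes tested. Each of the 10 was well above background on all 6 arrays, so the filter on dim probes removed none of them.

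Total RNA from ear skin of 6 mice was hybridised to 6 one-colour arrays, 1 per mouse. The 3 WT mice carry the label NC16A sufficient (replicates 1, 2 and 3), and the 3 KO mice the label NC16A deficient (replicates 1, 2 and 7). NC16A is an extracellular stretch of BP180 (type XVII collagen), a protein that anchors basal keratinocytes to the basement membrane, and the title of the series places the study in spontaneous inflammation of the skin when BP180 does not function. The design text says that the groups were matched for age and sex, but the ages, the sexes, the strain, any litter and the way the deficiency was made are not given in the sources used here. All 3 WT arrays and KO 1 shared slide 1, while KO 2 and KO 7 were on slide 2. KO 1 against the 3 WT arrays is therefore the only comparison within a slide.

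IL-1α and IL-1β bind the receptor encoded by Il1r1, which pairs with the accessory protein encoded by Il1rap and signals through MyD88 to NF-κB and MAP kinases. Il1rn encodes a secreted competitor for that receptor, and Il1r2 a decoy receptor that binds IL-1 without signalling. The IL-36 agonists act in the same manner through the receptor encoded by Il1rl2, are made largely by epithelial cells, and are opposed by the product of Il1f5. In skin, keratinocytes store IL-1α, myeloid cells are the main makers of IL-1β, and excess IL-36 signalling is known from pustular psoriasis.

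The values below come from single 60-base probes, except for Il1f5, which had 2. For the 3 genes whose WT and KO values did not overlap, the first 30 bases of the 60-base probe are shown 5′ to 3′. Their mm9 positions are those of the 30 bases only. The Il1b stretch lies at chr2:129190377-129190406 and the Il1a stretch at chr2:129126024-129126053, both on the minus strand. The Il1f6 stretch lies at chr2:24081127-24081156 on the plus strand. Their exons were not determined, because no annotation of that build was used here.
Il1b probe: aggttcctataatatggatgagaattttta
Il1a probe: aatgccagttgagtaggataaaggtataag
Il1f6 probe: atgcagaacatcttaccatgttttcatcca

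IL-1β and IL-36α were the agonists with higher transcript levels in KO skin, and IL-1α was lower. Il1f6 (IL-36α) rose 2.90-fold and was the only one of the 10 genes to pass the test. Il1b (IL-1β) was 16.6-fold higher on average and did not pass, with a wide spread among the KO mice. Il1a (IL-1α) was 1.91-fold lower and did not pass. For the other IL-36 agonists, both antagonists and all 3 receptors the groups overlapped. At an adjusted p under 0.05 in limma, 1 of the 10 genes passed against 2.37% of all genes tested, and that 1 was higher in KO against 1.98% of all genes. None of the 10 was called lower, against 0.389% of all genes. Groups did not overlap for 3 of the 10 against 35.4% of all genes, and 3 of 10 had an unadjusted p under 0.05 against 26.6% of all genes. The median difference of the 10 was -0.075 on the log2 scale, with 4 higher and 6 lower in KO, beside a median of 0.054 over all genes. These shares were at or near the background.

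**Figure D1:**
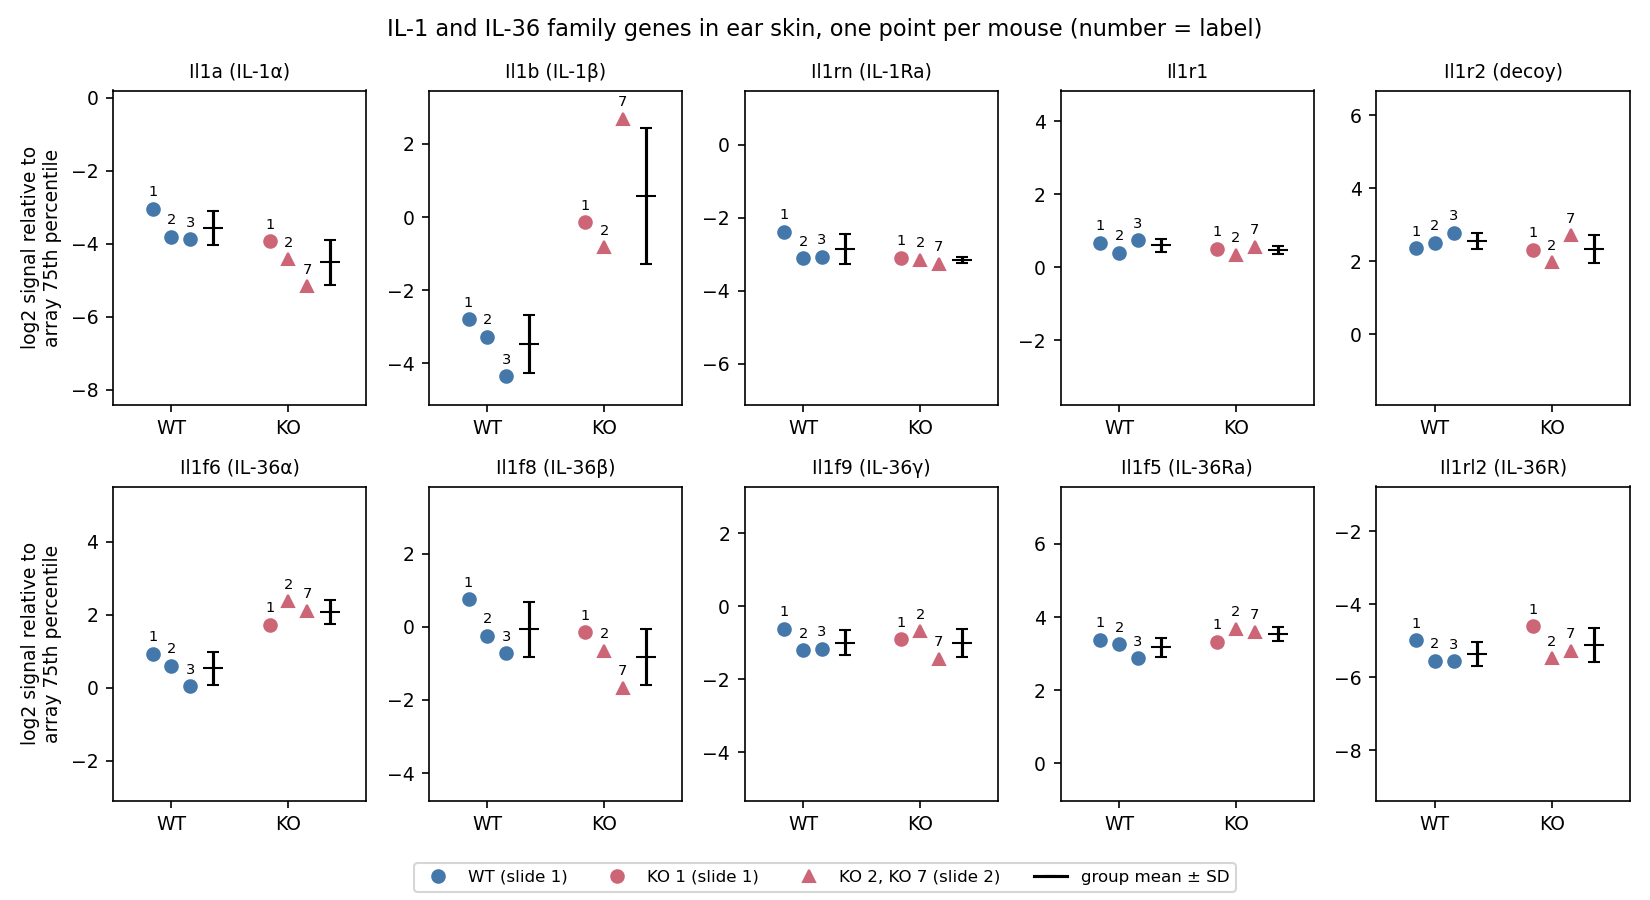
Signal of each of the 10 genes on each array, as log2 intensity minus the array's 75th percentile (y axis; every panel spans the same height, with its own offset), for WT and KO mice; each point is 1 mouse with its replicate number, circles are slide 1, triangles slide 2, and the bar is the group mean ± SD. The KO points lie above all WT points for Il1b and Il1f6 and below them for Il1a, and KO 7 is the highest point for Il1b.

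Il1b encodes IL-1β, which is made as a precursor and is cut by caspase-1 before it acts. All values are given as log2 intensity relative to the 75th percentile of the same array, so 0 means as bright as that percentile, and levels of different probes are not compared. Il1b read -2.81, -3.28 and -4.36 in WT 1, 2 and 3, against -0.15, -0.83 and 2.69 in KO 1, 2 and 7. Every KO mouse was above every WT mouse, and KO 7 stood far above the other two. As deposited intensities these were 952, 545 and 268 in WT and 3988, 2350 and 24537 in KO. The group means were -3.48 ± 0.80 (SD, n = 3) and 0.57 ± 1.86 (SD, n = 3).

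KO minus WT for Il1b was 4.05 ± 0.92 (SE; 95% confidence interval 1.86 to 6.24), with an adjusted p of 0.074 in limma. On slide 1 alone, KO 1 exceeded the WT mean by 3.33. Without KO 7 the difference was smaller, 3.0, and passed with an adjusted p of 0.048, while over all alternatives the adjusted p ran from 0.044 to 0.62. Spotting error was small beside this: the array carries 10 spots of the Il1b probe, of which 8 to 10 were usable, and their coefficient of variation was 1.83% to 3.35% per array. In bulk skin, fewer cells of a type and less RNA per cell cannot be told apart, nor can more cells and more RNA per cell.

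Neutrophil markers were read beside Il1b. Of 14 such markers 13 were measured, 12 of them were higher in KO, 2 passed the test, and their median difference was 1.85. Over all genes tested, 13040 of 23676 were higher in KO, 2.37% passed and the median was 0.054. The log2 of their summed level ran from 3.32 to 3.43 in WT and from 3.93 to 4.87 in KO, without overlap. Relative to the WT mean the markers averaged 1.49, 1.42 and 2.63 in KO 1, 2 and 7, with KO 7 highest as for Il1b. Ly6g, a defining neutrophil marker, was above background on every array and differed by -0.35 (adjusted p = 0.19). Of the monocyte and macrophage markers 4 of 13 were higher in KO, none passed, and their summed level ran from 5.15 to 5.29 in WT and from 4.94 to 5.75 in KO. The marker lists were chosen with earlier results of these data known, and the part of these cells in the Il1b difference was not tested.

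Il1a encodes IL-1α, an alarmin that is active as a precursor and is released from damaged keratinocytes. It read -3.05, -3.80 and -3.88 in WT 1, 2 and 3, against -3.94, -4.43 and -5.17 in KO 1, 2 and 7. The groups did not overlap, but KO 1 lay only just under WT 3. The difference was -0.94 ± 0.36 (SE; interval -1.80 to -0.069), with an adjusted p of 0.17, and -0.36 for KO 1 within slide 1. Il1a and Il1b thus had opposite signs in every KO mouse, and KO 7 was the mouse with the highest Il1b and the lowest Il1a.

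Il1rn, the IL-1 receptor antagonist, read -2.38, -3.12 and -3.06 in WT, against -3.09, -3.14 and -3.26 in KO 1, 2 and 7. The groups overlapped and only WT 1 stood apart. Its difference was -0.31 ± 0.22 (SE; interval -0.83 to 0.21; adjusted p = 0.37), -0.24 within slide 1 and -0.076 without WT 1.

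The signalling receptor Il1r1 read 0.67, 0.40 and 0.73 in WT, against 0.50, 0.34 and 0.55 in KO. It had the narrowest interval of the 10 genes, with a difference of -0.14 ± 0.15 (SE; interval -0.49 to 0.21; adjusted p = 0.56). The decoy receptor Il1r2 read 2.35, 2.51 and 2.78 in WT, against 2.32, 1.97 and 2.71 in KO, and its difference was -0.22 ± 0.22 (SE; interval -0.75 to 0.32; adjusted p = 0.55). KO 2 was the low mouse for both receptors. Within slide 1 the differences were -0.10 for Il1r1 and -0.23 for Il1r2.

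Il1f6, which encodes IL-36α, read 0.94, 0.61 and 0.049 in WT 1, 2 and 3, against 1.73, 2.38 and 2.11 in KO 1, 2 and 7. All KO mice were above all WT mice, and here KO 7 did not stand out. The WT mean was 0.53 ± 0.45 (SD, n = 3), against 2.07 ± 0.33 (SD, n = 3) for KO. Il1f6 rose by 1.54 ± 0.27 (SE; interval 0.89 to 2.19), with an adjusted p of 0.045 in limma, and KO 1 exceeded the WT mean by 1.19 within slide 1.

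The Il1f6 call was close to the threshold. It held in 8 of 20 alternatives, all 20 of which gave the same direction, and the adjusted p ran from 0.023 to 0.45, the highest with the slide as a block. Leaving out 1 mouse ended it in 5 of 6 cases: the adjusted p was 0.051 without WT 1, 0.15 without WT 2, 0.097 without WT 3, 0.12 without KO 2 and 0.087 without KO 7, and it was 0.043 without KO 1.

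Il1f8, which encodes IL-36β, went the other way on average and did not pass. It read 0.75, -0.24 and -0.72 in WT, against -0.14, -0.65 and -1.67 in KO 1, 2 and 7. The groups overlapped, with WT 1 highest and KO 7 lowest. Its difference was -0.75 ± 0.50 (SE; interval -1.94 to 0.44; adjusted p = 0.35), and -0.073 within slide 1. Leaving out WT 1 gave -0.34, and leaving out KO 7 gave -0.33.

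Il1f9, which encodes IL-36γ, the agonist best known from psoriatic epidermis, read -0.62, -1.21 and -1.17 in WT, against -0.91, -0.68 and -1.43 in KO. The KO values lay on both sides of the WT mean. The difference was -0.012 ± 0.25 (SE; interval -0.62 to 0.59; adjusted p = 0.98) and had no stable sign, being 0.084 within slide 1 and 0.054 under another background correction.

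Il1f5, the IL-36 receptor antagonist, read 3.37, 3.26 and 2.87 in WT, against 3.32, 3.68 and 3.60 in KO. KO 2 and KO 7 were above all WT mice and KO 1 was not. The difference was 0.37 ± 0.18 (SE; interval -0.072 to 0.80; adjusted p = 0.24), with 0.15 within slide 1. A second Il1f5 probe gave 0.42 (adjusted p = 0.25), the same direction as the first.

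The IL-36 receptor Il1rl2 read -4.99, -5.55 and -5.56 in WT, against -4.60, -5.49 and -5.27 in KO. KO 1 was highest and the groups overlapped. The difference was 0.24 ± 0.28 (SE; interval -0.42 to 0.90; adjusted p = 0.59), with 0.76 within slide 1 and -0.016 without KO 1.

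Markers of epithelial cells, a main source of IL-36, were read beside Il1f6. Of 10 keratinocyte markers 9 were higher in KO, against 13040 of 23676 genes tested, and none passed, against 2.37%. KO lay above WT without overlap for 7 of the 10, while 35.4% of all genes did not overlap in either direction. The log2 of the summed level of the 10 ran from 8.63 to 8.87 in WT and from 9.06 to 9.35 in KO. Of 12 hair follicle markers 11 rose, against 1.98% of all genes tested, with a median difference of 3.38. These lists too were chosen with earlier results of these data known, and their part in the Il1f6 difference was not tested.

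**Figure D2:**
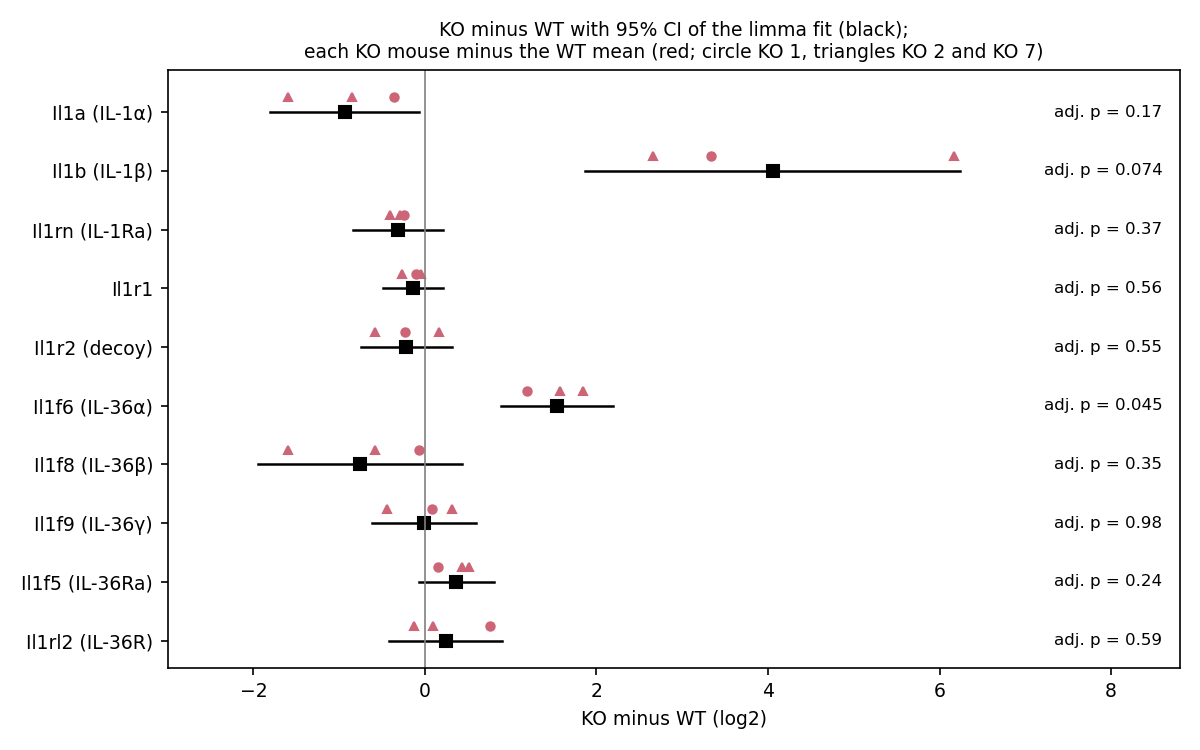
KO minus WT on the log2 scale (x axis) for the 10 genes (y axis): black squares and lines are the limma difference with its 95% confidence interval, red symbols each KO mouse minus the WT mean (circle KO 1, triangles KO 2 and KO 7), and the adjusted p stands at the right. The intervals of Il1b (1.86 to 6.24) and Il1f6 (0.89 to 2.19) lie above 0, that of Il1a (-1.80 to -0.069) lies below it, and the other 7 cross it.

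Each agonist was then set against its own antagonist within the array. A single scaling factor per array cannot change this difference of log2 signals, though quantile normalization or another background correction can. These 5 ratios were added after the values had been seen. With 3 mice against 3, the exact permutation test over 20 splits cannot go below p = 0.10. The ratio of Il1b to Il1rn was higher than the WT mean by 3.57, 2.95 and 6.57 in KO 1, 2 and 7, a mean change of 4.37 (20.6-fold; exact two-sided p = 0.10; 0.167 after Benjamini-Hochberg over 5 ratios). The ratio of Il1f6 to Il1f5 was higher by 1.04, 1.33 and 1.14, a mean change of 1.17 (2.25-fold; exact p = 0.10; 0.167 adjusted).

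The Il1f6 ratio was much alike in the 3 KO mice, whereas the Il1b ratio was not. For Il1a over Il1rn the change was -0.62 (exact p = 0.10; 0.167 adjusted), without overlap but with only -0.12 in KO 1. For Il1f8 over Il1f5 the change was -1.12 (exact p = 0.30; 0.30 adjusted), and for Il1f9 over Il1f5 it was -0.38 (exact p = 0.30; 0.30 adjusted). In both of the latter the groups overlapped.

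**Figure D3:**
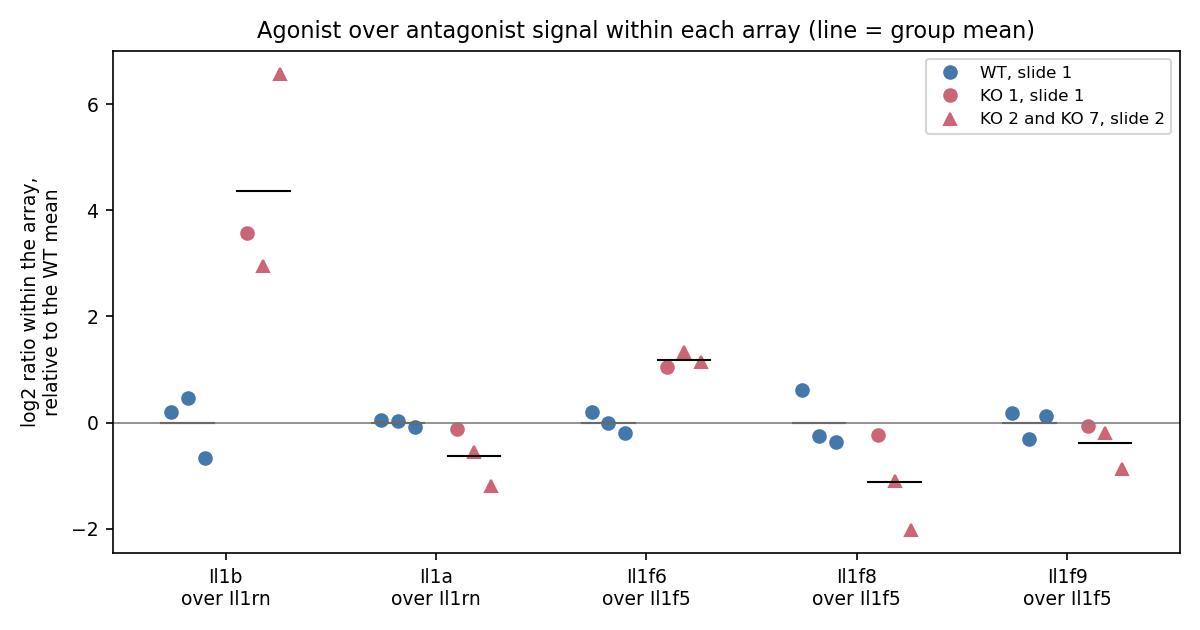
Log2 ratio of agonist to antagonist signal within each array, relative to the WT mean (y axis), for 5 pairs (x axis); points are mice (circles slide 1, triangles slide 2), lines group means. All KO mice lie above all WT mice for Il1b over Il1rn (changes of 2.95 to 6.57) and Il1f6 over Il1f5 (1.04 to 1.33).

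The genes whose pattern over the 6 arrays was most like a family member's were found by the root mean square difference of log2 values, each centred on its WT mean. For Il1b, Csf3 was left out, since it was above background in KO only and its distance depends on the background level. With Csf3 left out, the nearest were Ccl4 (0.612) and Fpr1 (0.631), both highest in KO 7. For Il1f6 they were Trav6d-3 (0.130), F5 (0.172) and Psg28 (0.209).

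The family's genes lie in 2 groups on chromosome 2 and 1 on chromosome 1. In RefSeq (GRCm38.p6) the order of one group is Il1f8, Il1f9, Il1f6, Il1f5, Il1f10 and Il1rn, and Il1a and Il1b lie together farther along the chromosome. The receptors Il1r2, Il1r1 and Il1rl2 follow each other on chromosome 1. Il1f6 passed, while the genes beside it, Il1f9 and Il1f5, did not, and whether neighbours differ was tested only as the ratio of Il1f6 to Il1f5 above. Il1b and Il1a, next to each other, had differences of opposite sign, and neither passed.

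The promoters of that last pair are shown because the signs of their differences were opposite, as the 250 bases before the start, 5′ to 3′ on the gene's strand, from RefSeq GRCm38.p6, with motif matches in capitals. Il1b is at chr2:129371140-129371389 and Il1a at chr2:129309973-129310222, both on the minus strand.
Il1b promoter: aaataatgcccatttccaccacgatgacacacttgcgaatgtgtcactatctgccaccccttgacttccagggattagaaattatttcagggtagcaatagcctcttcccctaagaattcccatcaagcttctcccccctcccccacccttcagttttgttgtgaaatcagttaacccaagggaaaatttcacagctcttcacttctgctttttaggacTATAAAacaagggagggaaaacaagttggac
Il1a promoter: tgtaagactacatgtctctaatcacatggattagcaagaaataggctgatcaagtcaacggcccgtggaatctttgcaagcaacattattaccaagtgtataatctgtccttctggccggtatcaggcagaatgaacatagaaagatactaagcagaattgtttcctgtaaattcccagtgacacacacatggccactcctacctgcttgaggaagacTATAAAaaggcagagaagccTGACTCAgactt

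The motifs searched on both strands were the kappa B motif, AP-1 (TGANTCA), C/EBP (TTGCNNAA) and the TATA box (TATAAA). Il1b held a TATA box 31 to 26 bases before its start and none of the others. Il1a held a TATA box 32 to 27 bases before its start and an AP-1 match 12 to 6 bases before it. Of 9 family genes with an entry, Il1f8 and Il1rn also held an AP-1 match, Il1f5, Il1r1 and Il1rl2 a C/EBP match, Il1r1 a kappa B match at another start, and Il1rl2 a TATA box on the opposite strand. Over 32851 promoters of the same length, 3.90% held a kappa B match, 6.75% an AP-1 match, 9.56% a C/EBP match and 12.4% a TATA box. No 2 motifs overlapped in the promoters printed. A match describes letters only. Il1f6, the gene that passed, had no entry, so its promoter was not searched.

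The rest of the pathway was read from 4 lists of 81 genes in all, 77 of them measured. Csf3 and Cxcl3 entered through the KO arrays alone, where they were above background, so they are left out of the counts. Of the other 75 genes 6 rose and 1 fell, against 1.98% and 0.389% of all genes tested. The lists were chosen with earlier results of these data known, so these shares are no test of the pathway. Genes that IL-1 or IL-36 are known to induce in skin cells had the highest median of the 4 lists.

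Among 24 co-receptor and signalling genes 1 rose and none fell, with a median difference of 0.14. The 1 was Nfkbiz, which encodes IκBζ, a nuclear regulator of inflammatory genes downstream of IL-1 and IL-36. It read -4.29, -4.52 and -4.05 in WT, against -2.35, -2.18 and -1.95 in KO 1, 2 and 7. The groups were well apart and the KO mice close together. Nfkbiz rose by 2.13 ± 0.18 (SE; adjusted p = 0.0035 in limma) and by 1.93 within slide 1, and it passed whichever mouse was left out. The shared accessory chain Il1rap (0.64, adjusted p = 0.18) and the adaptor Myd88 (0.39, adjusted p = 0.18) did not pass.

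Among 22 genes for activation and release of the cytokines none rose and 1 fell, with a median of 0.30. That was Nlrp10, of the NOD-like receptor family, which read 0.58, 0.62 and 0.77 in WT, against 0.0012, -0.14 and -0.25 in KO. It fell by 0.79 on the log2 scale (difference -0.79 ± 0.13, SE; adjusted p = 0.038) and by 0.66 within slide 1, and leaving out any mouse but KO 1 took the adjusted p to between 0.073 and 0.16. With the slide as a block the adjusted p was 0.39. The caspase-1 gene Casp1 (0.41, adjusted p = 0.23) and the inflammasome sensor Nlrp3 (0.95, adjusted p = 0.14) did not pass.

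Of 9 other family members and receptors 7 were measured, 1 rose and none fell, with a median of 0.37. Il18r1, a chain of the IL-18 receptor, read -3.27, -3.04 and -2.90 in WT, against -2.17, -1.62 and -1.65 in KO. This probe rose by 1.25 ± 0.20 (SE; adjusted p = 0.032) and by 0.90 within slide 1. A second, dimmer Il18r1 probe, above background on all 6 arrays, differed by 0.015 ± 0.25 (SE; adjusted p = 0.97), and the mean of both gave 0.63 (adjusted p = 0.061), so the probes disagree. The call was also lost with the slide as a block (adjusted p = 0.28) and when any mouse but KO 1 was left out (0.068 to 0.12). The log2 of the summed level of 10 T cell markers, cells that carry this receptor, ran from 2.26 to 2.49 in WT and from 2.42 to 3.01 in KO. These ranges overlapped, and the part of T cells in the Il18r1 difference was not tested. The alarmin Il33 (-0.024, adjusted p = 0.93) and Il18 (-0.0097, adjusted p = 0.98) did not pass.

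Of 26 genes that IL-1 or IL-36 induce in skin cells 24 were measured. Of these, 22 were above background on at least 1 array of each group. Cxcl2 and Defb4 were so on only 2 of 3 WT arrays, and Csf2 on 2 of 3 in each group. Their differences (4.63, 3.28 and 0.76) thus rest partly on values at background. Of the 22, 4 rose and none fell, against 1.98% and 0.389% of all genes tested. This list too was chosen with earlier results of these data known, so the shares do not test it. In KO 20 were higher, against 13040 of all 23676 genes. Their median was 1.71, or 1.92 over the 24 with Csf3 and Cxcl3 set at their lower bounds. The median of the 22 was 0.63 for KO 1 within slide 1. They averaged 1.43, 1.60 and 3.04 above the WT mean in KO 1, 2 and 7. The alarmins S100a8 and S100a9, made by keratinocytes and neutrophils alike, rose by 4.72 ± 0.35 and 4.69 ± 0.30 (SE; adjusted p = 0.0023 and 0.0019). S100a8 read 0.0052, -0.71 and -1.40 in WT, against 3.99, 3.81 and 4.26 in KO, while S100a9 read 1.74, 0.98 and 0.93 in WT, against 5.58, 5.78 and 6.36 in KO. Both were high in all 3 KO mice, without the excess in KO 7 that Il1b showed.

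Zc3h12a, which encodes the RNase Regnase-1 that degrades inflammatory mRNAs, read -0.87, -1.01 and -0.97 in WT, against 0.78, 1.11 and 0.84 in KO. It rose by 1.86 ± 0.14 (SE; adjusted p = 0.0024) and by 1.73 within slide 1, with little spread in either group. The siderophore-binding gene Lcn2 rose by 2.72 ± 0.34 (SE; adjusted p = 0.014), and its adjusted p was 0.072 without WT 2, 0.051 without KO 2 and 0.19 with the slide as a block. With the slide as a block, a difference is that of KO 1 from the WT mice on slide 1, so it rests on KO 1 alone. It was 1.93 for Nfkbiz, 4.69 for S100a8, 4.36 for S100a9 and 1.73 for Zc3h12a. Csf3, which encodes the granulocyte growth factor G-CSF, had no WT array well above background and was at least 3.95-fold higher in KO, measured against the dimmest detected probes. No call is given for Csf3, since it passed the filter through the KO arrays alone. The neutrophil chemokine Cxcl1 (2.72, adjusted p = 0.053) did not pass. This list shares its direction with the neutrophil markers given above, and their part in it was not tested.

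**Figure D4:**
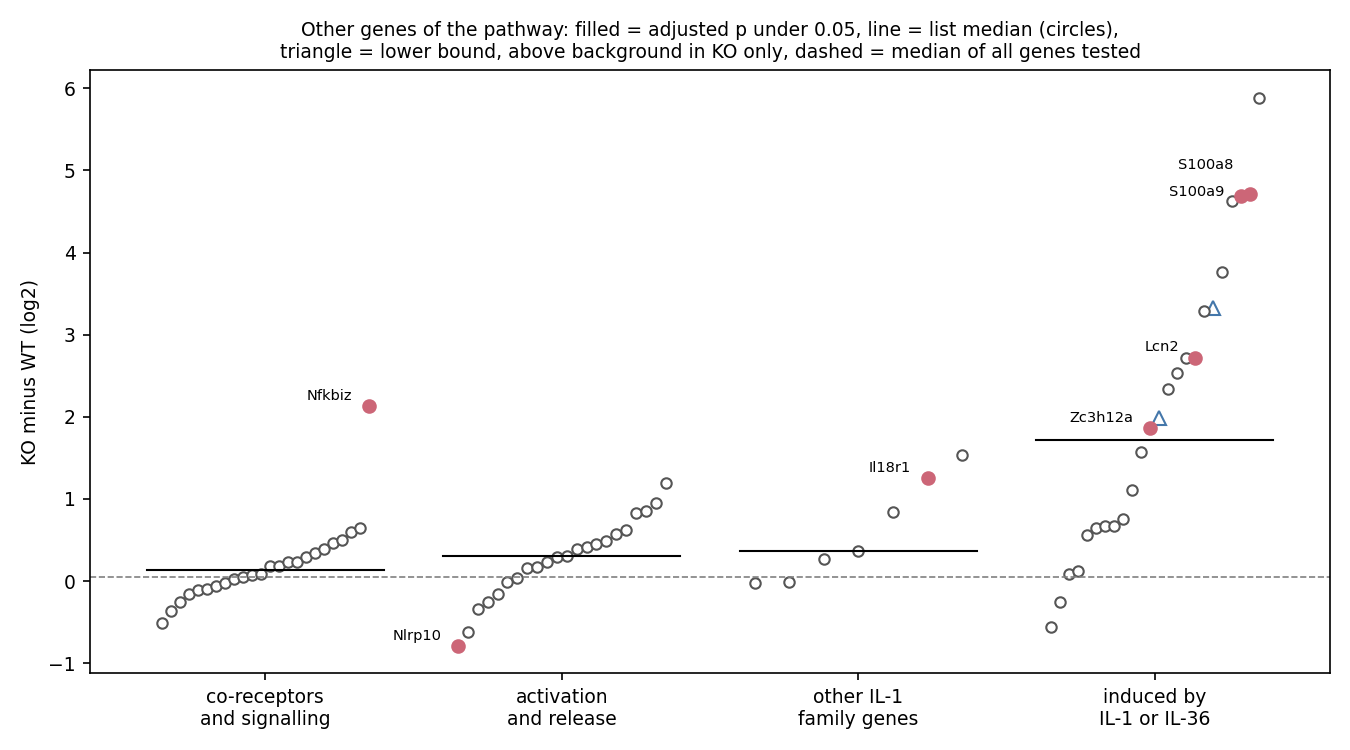
KO minus WT on the log2 scale (y axis) for each measured gene of 4 pathway lists (x axis); filled circles passed at an adjusted p under 0.05, triangles are lower bounds for Csf3 and Cxcl3 (above background in KO only), lines are medians of the circles and the dashed line is the median of all genes (0.054). The list of induced genes has the highest median (1.71) and 4 filled circles.

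Among all genes tested, 469 rose and 92 fell. Between 72.6% and 78.2% of spots per array were well above background, and no spot was saturated. Of markers of other tissues in the ear, 7 of 7 for adipocytes (median -0.94), 8 of 8 for skeletal muscle (median -0.65) and 5 of 7 for cartilage (median -0.56) were lower in KO. Over all genes tested, 10636 of 23676 were lower. None of these tissue markers passed, and their part in the results was not tested. Col17a1, the gene of BP180, differed by -0.13 ± 0.14 (SE; adjusted p = 0.58), and since the position of its probe relative to the deficiency was not determined, this checks nothing about the labels. Nothing in the labels says more about how the replicates were obtained than that they are separate mice.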

How the data were processed

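Each value is the processed intensity of a spot in the deposited scanner files. Per the file headers, Agilent Feature Extraction 10.7.3.1 (protocol GE1_107_Sep09, design 026655, probe positions on mm9) subtracted background within the array and did not normalise between arrays. RNA came from Qiagen RNeasy kits, per the labels' protocols. From 43020 non-control spots per array, 170 to 249 outlier spots were left out, and spots of a probe were averaged as log2 intensity minus the array's 75th percentile. The fit kept 29602 probes that were well above background on 3 or more of 6 arrays, and a gene was its kept probe with the highest mean. Names were updated through RefSeq GRCm38.p6: accessions named 26027 probes, symbols 3193 and synonyms 925, while 9244 kept the file's name. WT and KO were compared with limma 3.58.1 in R 4.3.3 (lmFit, eBayes, two-sided, Benjamini-Hochberg over 23676 genes, adjusted p under 0.05). The code was also run on simulated data with independent noise and no slide effect, which cannot show how the slides affect the calls. Changes on the log2 scale are KO minus WT. A gene not well above background in one group is given as "at least" a fold, against the higher of its own signal and the lowest signal among detected probes, array by array.

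The genes and lists were chosen with earlier results of these data known. Those named are the 10 genes, list genes that passed and were above background in both groups, Csf3, and the 3 genes most like Il1b and most like Il1f6 (those most like Il1f9 are not reported here); Il1rap, Myd88, Casp1, Nlrp3, Il33, Il18, Cxcl1, Cxcl3 and Ly6g were named after their values were seen. Marker lists of 12 cell types and tissues were read as counts; counts not given above were T cells (1 of 10 passed), dendritic cells (0 of 10), mast cells (0 of 7), fibroblasts (1 of 8) and endothelium (0 of 7).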

Additional observations from a re-analysis of the deposited data

How the results depend on the processing

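Of 200 values of the 10 genes under 20 alternatives, 178 kept their direction and side of the threshold, 12 lost the call and 3 gained it. Il1f9 changed sign with normexp background correction (0.054), the replicate block (0.11), the slide as a fixed block (0.084), slide 1 only (0.084) and leaving out 1 mouse (-0.18 to 0.20); Il1rl2 did so when 1 mouse was left out (-0.016 to 0.43). Among the 10 genes, 2 passed with normexp, with an intensity trend or at an adjusted p under 0.10, none with quantile or median scaling, no filter, the slide as fixed or random block or slide 1 only, and 0 to 1 without 1 mouse. Of all genes, 1046 passed with normexp, 296 with no filter, 168 with the slide as fixed block, 165 on slide 1 only and 2041 at 0.10. Leaving out 1 mouse gave 202 to 973: 357 without WT 1, 202 without WT 2, 237 without WT 3, 973 without KO 1 and 242 without KO 2. Median scaling called 390 higher and 149 lower. Of the pathway genes, 8 passed with Csf3 counted, 5 with no filter, 4 with the slide as fixed block, 4 on slide 1 only, 18 at 0.10 and 4 to 9 without 1 mouse. The median difference of all genes was 0.054, and 0.11 with normexp, 0.12 with no filter and -0.083 with median scaling. Slide 1 only was chosen after seeing the data.

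With the replicate block, limma called 0 genes in the whole table (4518 at an unadjusted p under 0.05), 0 of the 10 genes and 0 pathway genes. The numbers 1 and 2 are shared by WT and KO, but same-numbered mice deviated together only weakly (correlations 0.083 and 0.054), so they are not shown to pair the mice. The number of arrays limits the precision.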

Other observations

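WT 1 was the highest of the WT mice for 8 of the 10 genes, all but Il1r1 and Il1r2. Over all genes tested WT 1 was the highest WT mouse for 34.4% and the lowest for 42.2%. Among the KO mice KO 7 was highest for 3 of the 10 genes and lowest for 4, against 45.8% and 32.4% of all genes. These counts were chosen after the values were seen.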
